A study of Homo sapiens with 18 samples.

Results

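The comparison of BEAS-2B with H446 cells was a comparison of 2 radiation responses: the change after 10 Gy of X-rays in BEAS-2B cells minus the change after 10 Gy in H446 cells. BEAS-2B is a lung epithelial line, immortalised with an adenovirus and SV40 hybrid virus, and H446 is a small cell lung cancer line. Each line contributed 3 control libraries and 3 libraries harvested 24 h after 10 Gy, so that 12 of the 18 libraries of the series entered. Both lines are labelled wild type, were kept in the same medium and received no other agent, and no separate time was given for the controls. Of 18475 genes, 12438 were tested, namely those that reached an FPKM of 1 (fragments per kilobase of transcript, scaled to the mapped reads of the library) in 3 or more of the 6 libraries of either line. The library labelled BEAS-2B 10 Gy replicate 2 stood apart from the other irradiated BEAS-2B libraries, so that every comparison was also made with the remaining 11 libraries.

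Ionising radiation breaks DNA. Damaged cells stabilise the transcription factor p53, which switches on genes for cell cycle arrest (CDKN1A), its own negative regulator (MDM2), stress hormones (GDF15) and cell death (BBC3), and the checkpoints hold cells before DNA replication or before mitosis. Cells held before mitosis are rich in transcripts of mitotic genes and poor in transcripts of replication genes, since these are made in different phases of the cycle. In bulk RNA, fewer cells in a phase and less RNA per cell cannot be told apart.

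Among 15 gene lists, the median difference between the lines was largest for the mitosis genes and the p53 target genes. In H446 cells, transcripts of mitosis genes rose and those of DNA replication genes fell after 10 Gy, with little movement of the p53 target genes. In BEAS-2B cells, the p53 target genes rose in 2 of the 3 irradiated libraries, and the mitosis and replication genes moved less than in H446. Single genes moved in opposite directions, such as PHLDA2, up by 0.52 and down by 0.44 on the log2 scale.

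Replicate libraries correlated at Pearson's r of 0.9897 to 0.9979 across genes, and total FPKM lay between 461255 and 529936 per library. The values are no counts and the depth is unknown. Nothing in the labels says that replicates were separate cultures, so the p-values measure only the spread between these libraries, which may be technical. Over the p53 target list, the library labelled BEAS-2B 10 Gy replicate 2 had a median of -0.00 relative to the BEAS-2B controls on the log2 scale, against 0.76 and 0.95 in the other irradiated libraries. The spread within groups was wider in BEAS-2B (median standard deviation 0.11 on the log2 scale) than in H446 (0.07). Libraries also deviated along the GC content of transcripts: the Spearman correlation across genes ran from 0.32 to 0.44 over H446 controls and from -0.47 to -0.10 over H446 libraries after 10 Gy, and ranged from -0.61 to 0.01 and from -0.29 to 0.68 in BEAS-2B. The labels were checked against marker genes. In H446 the neuroendocrine genes CHGA, SYP and NCAM1 were all below 1 FPKM, while YAP1 (mean 46.0 in the controls) and MYC (mean 82.6) were expressed. Other neuroendocrine genes ran against the labels, with control means of 269.6 FPKM in BEAS-2B and 22.9 in H446 for UCHL1, of 111.2 and 20.7 for ENO2 and of 4.66 and 0.003 for NCAM1. Of the epithelial genes, 4 keratins were expressed in both lines and higher in H446, with control means of 315.1 FPKM in BEAS-2B and 1337 in H446 for KRT7, of 521.8 and 1368 for KRT8, of 165.1 and 758.8 for KRT17 and of 482.6 and 1207 for KRT18. KRT19 (9.80 and 2.29) and EPCAM (2.37 and 1.11) were lower in H446 and EGFR (10.8 and 25.1) higher. Control means of CDH1 (0.46 and 0.59) and TP63 (0.16 and 0.84) were below 1 FPKM in both lines. Both lines lacked KRT5 (highest 0.03 in any library), and PTPRC, the pan-leukocyte gene, did not exceed 0.09 anywhere. Of the mesenchymal genes, VIM (898.1 and 989.7) and CDH2 (41.5 and 48.7) were expressed in both lines and PDGFRB (11.7 and 0.01) in BEAS-2B, while COL1A2 did not exceed 0.66.

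Which genes responded differently was tested with the interaction of line and irradiation in limma. With 12 libraries, BEAS-2B had the higher response for 1243 genes (9.99% of those tested) and the lower for 758 (6.09%). Without BEAS-2B 10 Gy replicate 2 the counts were 1180 (9.49%) and 582 (4.68%). In BEAS-2B cells 179 genes rose (1.44%) and 93 fell (0.748%) with 12 libraries, and 513 rose (4.12%) and 135 fell (1.09%) with 11. For H446, 874 rose (7.03%) and 1557 fell (12.5%), and the same 6 libraries gave 1124 (9.04%) and 1925 (15.5%) when the BEAS-2B library was left out of the shared fit. Quantile normalization, which gives all libraries the same distribution, turned the balance of the interaction to 903 higher and 1111 lower, and that of H446 to 1133 higher and 1125 lower, so that the direction with more genes depends on the scaling.

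Genes were then sorted by which of these tests they passed. A response was opposite where the difference and both lines passed with opposite signs, which held for 41 genes (0.33%), 31 of them up in BEAS-2B and down in H446. It was shared where both lines passed with the same sign and the difference did not, which held for 31 genes (0.249%), 14 up and 17 down. A BEAS-2B-only response, with the difference and BEAS-2B past the threshold and H446 not, was seen in 119 genes (0.957%), and an H446-only response in 1315 (10.6%). With 11 libraries these counts became 75 opposite (0.603%), 108 shared (0.868%), 310 BEAS-2B-only (2.49%) and 1123 H446-only genes (9.03%). Of the genes sorted with 12 libraries, 32 of the opposite, 28 of the shared, 95 of the BEAS-2B-only and 1019 of the H446-only genes were in the same class and direction with 11. A line-only label says that the other line did not pass, and in some cases the gene was hardly expressed there: 12 of 90 BEAS-2B-only genes that rose had a mean below 1 FPKM in both H446 groups. The classes also differed in GC content. Its median was 60.8% among genes up in BEAS-2B and down in H446, 58.9% among H446-only genes that fell and 40.8% among those that rose, against 48.1% over all genes tested. A correction for the GC trend left 177 of the 439 H446-only genes that rose with 11 libraries in their class, and 269 of the 684 that fell.

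**Figure D1:**
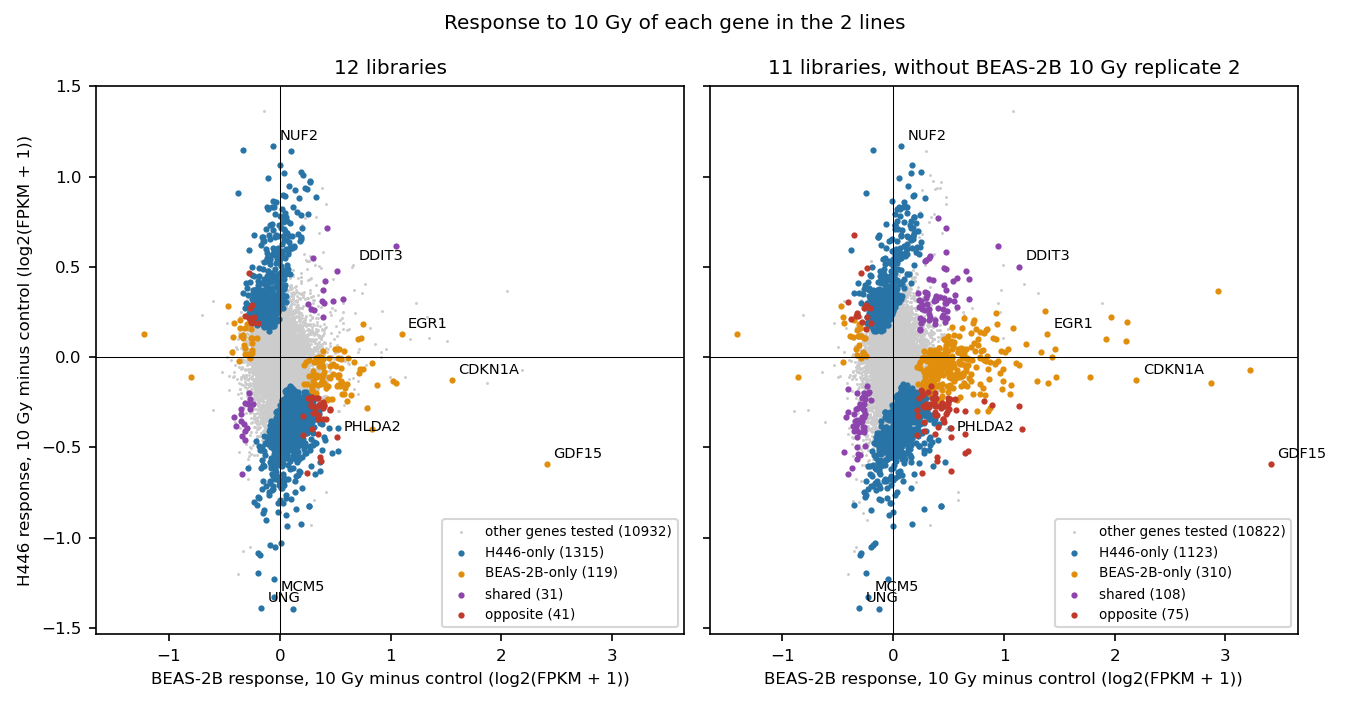
Response of each gene tested to 10 Gy in BEAS-2B (horizontal axis) and H446 (vertical axis), as 10 Gy minus control on the log2(FPKM + 1) scale, with 12 libraries (left) and 11 (right). Each point is a gene, coloured by class, and the BEAS-2B-only genes number 119 on the left and 310 on the right.

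The mitosis list held 30 genes that act from the entry into mitosis to the separation of daughter cells, and all 30 rose in H446 cells, where 7.03% of all genes did with 12 libraries and 9.04% with 11. In BEAS-2B, 2 rose with 12 libraries and 12 with 11 (1.44% and 4.12% of all genes). The difference passed the test, lower in BEAS-2B, for 29 of 30 with 12 libraries and 30 of 30 with 11, against 6.09% and 4.68% of all genes. The median response was 0.82 in H446 and 0.06 in BEAS-2B (0.18 with 11 libraries), beside -0.03 and 0.00 over all genes. Every irradiated H446 library stood alike, with list medians of 0.78, 0.81 and 0.79 relative to the controls, while the irradiated BEAS-2B libraries had 0.12, -0.16 and 0.28.

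NUF2, a kinetochore protein that ties chromosomes to the spindle (chromosome 1, 163321954 to 163355759, RefSeq on GRCh38), had, after H3C8, the largest difference among the H446-only genes that rose, reached a mean of 5 FPKM in a group and held their class with 11 libraries. It stood at 29.56, 28.58 and 30.6 FPKM in the H446 controls and at 65.33, 69.4 and 68.32 after 10 Gy, and at 81.37, 77.72 and 81.77 in the BEAS-2B controls and 79.11, 63.69 and 90.44 after 10 Gy. The H446 groups were far apart and the BEAS-2B groups overlapped. Its response was 1.17 ± 0.09 (SE) in H446 (adjusted p = 3.67e-06) and -0.06 ± 0.09 in BEAS-2B (adjusted p = 0.744), a difference of -1.23 ± 0.13 (adjusted p = 0.000199).

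ASPM, which acts at the spindle poles, was at 34.88, 34.53 and 35.91 FPKM in the H446 controls and 58.78, 77.5 and 78.19 after 10 Gy, and at 31.82, 29.67 and 31.98 in BEAS-2B controls and 29.22, 23.01 and 35.54 after 10 Gy. Control levels were thus similar in the 2 lines and parted after irradiation, with a difference of -1.10 ± 0.18 (adjusted p = 0.00309). HMMR, a microtubule-binding receptor for hyaluronan, went from 17.33, 18.46 and 17.42 to 36.09, 37.64 and 40.75 in H446, and from 56.89, 53.71 and 58.8 to 53.1, 44.46 and 75.71 in BEAS-2B (difference -1.06 ± 0.19, adjusted p = 0.00409). The mitotic kinases NEK2 (difference -1.04 ± 0.16, adjusted p = 0.00277) and TTK (-0.95 ± 0.17, adjusted p = 0.00429) followed the same pattern. With 11 libraries NEK2 also rose in BEAS-2B, by 0.29 ± 0.06 (adjusted p = 0.00953), and the difference remained at -0.85 ± 0.08. These 5 genes kept their call for the difference under 26 alternatives, which leave out the stricter limits on p and on size. TTK was below a log2 difference of 1.

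Many mitotic promoters carry the CHR element (TTTGAA), read by the repressor and activator complexes built on MuvB, together with CCAAT boxes bound by NF-Y, whereas promoters of replication genes often carry E2F sites. The promoters of 2 mitotic genes that rose in H446 and 2 replication genes that fell there are shown for this contrast. Each run is the 200 bases before the transcription start in RefSeq on GRCh38.p14, read 5′ to 3′ on the strand of the gene, with CHR elements, CCAAT boxes and E2F elements (TTTCCCGC or TTTGGCGC), on either strand, in capitals. They lie at chr1:197146670-197146869 (minus strand, ASPM), chr5:163460432-163460631 (plus strand, HMMR), chr16:85688955-85689154 (minus strand, GINS2) and chr20:5126623-5126822 (minus strand, PCNA).
ASPM: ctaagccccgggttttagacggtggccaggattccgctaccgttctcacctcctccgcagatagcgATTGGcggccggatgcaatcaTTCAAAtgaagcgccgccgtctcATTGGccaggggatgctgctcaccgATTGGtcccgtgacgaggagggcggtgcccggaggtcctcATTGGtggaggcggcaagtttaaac
HMMR: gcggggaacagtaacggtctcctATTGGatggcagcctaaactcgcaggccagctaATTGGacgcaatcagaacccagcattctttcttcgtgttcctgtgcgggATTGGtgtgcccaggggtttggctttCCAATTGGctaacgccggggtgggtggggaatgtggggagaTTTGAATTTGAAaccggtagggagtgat
GINS2: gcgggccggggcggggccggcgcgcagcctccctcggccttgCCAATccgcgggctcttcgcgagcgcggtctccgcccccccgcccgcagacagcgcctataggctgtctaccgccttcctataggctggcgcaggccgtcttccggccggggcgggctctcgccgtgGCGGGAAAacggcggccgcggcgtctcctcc
PCNA: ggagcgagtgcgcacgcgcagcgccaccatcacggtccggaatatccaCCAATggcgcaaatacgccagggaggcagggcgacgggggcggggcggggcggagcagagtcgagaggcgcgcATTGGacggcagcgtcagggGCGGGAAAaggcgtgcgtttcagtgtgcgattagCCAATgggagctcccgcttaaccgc
The ASPM run holds the CHR letters on the strand opposite to the gene and 4 CCAAT boxes. In HMMR, 2 CHR copies stand side by side, and the CCAATTGG stretch reads as a CCAAT box on both strands. GINS2 and PCNA hold an E2F element each, on the opposite strand, and no CHR. These promoters were chosen to show the elements, and other mitosis genes named here differ: in the same 200 bases NUF2 held none of them and NEK2 held 2 CCAAT boxes and no CHR.

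Over windows of 250 bases before to 50 after the start, 60.0% of 25 mitosis list promoters held a CHR, against 0 of 26 replication promoters and 9.53% of all 10161 genes tested that had a promoter entry. The E2F letters were in 53.8% of the replication promoters, 8.0% of the mitosis promoters and 3.87% of all. Among H446-only genes that rose, with 431 promoters, 26.2% held a CHR, while the share was 5.3% among the 641 promoters of H446-only genes that fell and 9.72% among the 72 of BEAS-2B-only genes that rose. In the small classes, a CHR was held by 5 of 25 promoters of BEAS-2B-only genes that fell (5 of 23 with 11 libraries), by 2 of 10 of shared genes that rose (10 of 50), and by 3 of 8 of opposite genes that fell in BEAS-2B, but by 1 of 10 of the last with 11 libraries. CCAAT boxes were in 84.0% of the mitosis and 57.7% of the replication promoters and in 36.8% of all. The E2F element was in 4 of 14 promoters of shared genes that fell (28.6%) and in 7.02% of those of H446-only genes that fell. A match describes letters, not binding.

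**Figure D2:**
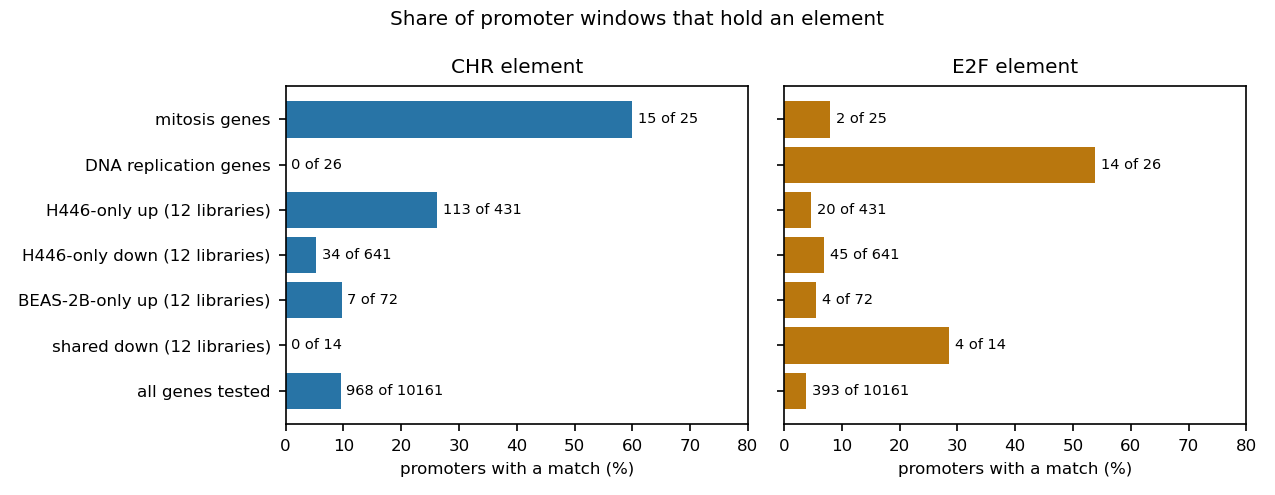
Share of promoter windows (percent, horizontal axis) that hold a CHR or an E2F element, for gene lists and response classes (vertical axis). CHR reaches 60.0% in the mitosis list and E2F 53.8% in the replication list, against 9.53% and 3.87% of all genes tested.

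The DNA replication list (30 genes for the licensing of origins, the helicase, the clamp and the polymerases) moved the other way in H446, where 26 fell and 1 rose (12.5% and 7.03% of all genes). In BEAS-2B 2 fell with 12 libraries and 10 with 11 (0.748% and 1.09% of all genes), and none rose. The change was thus less negative in BEAS-2B for 18 of 30 genes with 12 libraries and 13 of 30 with 11, against 9.99% and 9.49% of all genes. Median responses were -0.48 in H446, -0.14 in BEAS-2B with 12 libraries and -0.23 with 11, so the list moved in the same direction by median in the 2 lines and further in H446.

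MCM5, a subunit of the replicative helicase (chromosome 22, 35400140 to 35455031), was at 79.4, 76.82 and 76.77 FPKM in the H446 controls and 31.37, 30.33 and 29.19 after 10 Gy, and at 54.01, 60.96 and 56.24 in BEAS-2B controls and 53.01, 70.54 and 44.52 after 10 Gy. Only the H446 groups were separate, and the highest irradiated BEAS-2B value was that of replicate 2, without which the BEAS-2B groups were separate too. The response was -1.33 ± 0.11 in H446 (adjusted p = 8.04e-06) and -0.05 ± 0.11 in BEAS-2B (adjusted p = 0.842; -0.23 ± 0.07 with 11 libraries, adjusted p = 0.101), and the difference 1.28 ± 0.16 (adjusted p = 0.000674). After the GC correction with 11, MCM5 passed as a fall in both lines that differed in size.

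GINS2, part of the same helicase, went from 30.39, 31.86 and 37.55 to 14.8, 15.81 and 14.67 FPKM in H446 and from 32.34, 31.0 and 34.77 to 25.9, 32.22 and 27.23 in BEAS-2B, a difference of 0.89 ± 0.12 (adjusted p = 0.00133). Its BEAS-2B groups overlapped only through replicate 2. After the GC correction with 11 libraries, GINS2 also passed as a fall in both lines that differed in size. PCNA, the sliding clamp, went from 150.17, 151.56 and 159.85 to 85.75, 87.71 and 80.28 in H446 and from 458.54, 443.58 and 475.64 to 434.04, 444.61 and 482.52 in BEAS-2B (difference 0.84 ± 0.08, adjusted p = 0.000127). The irradiated BEAS-2B values of PCNA lay on either side of the controls. MCM4 differed by 0.78 ± 0.11 (adjusted p = 0.00178). With 11 libraries it fell in BEAS-2B too, with a response of -0.24 (adjusted p = 0.0293). The exception was RFC3, a clamp loader subunit, whose difference was -0.31 (with a response of 0.17 in H446 and -0.14 in BEAS-2B).

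Among 16 nucleotide supply genes, 11 fell in H446 (12.5% of all genes) and 1 in BEAS-2B (0.748%), and 8 differed, each with the higher response in BEAS-2B (9.99%). UNG, which removes uracil from DNA, had the largest difference of the list, 1.23 ± 0.15 (adjusted p = 0.000555), with 30.68, 31.81 and 32.65 FPKM in H446 controls and 13.12, 10.85 and 10.56 after 10 Gy. Its BEAS-2B values were 33.39, 35.49 and 31.52 in the controls and 28.08, 36.35 and 25.62 after 10 Gy, and overlapped only through replicate 2. With 11 libraries the BEAS-2B response of UNG was -0.31 (adjusted p = 0.0518). After the GC correction with 11, UNG passed as a fall in both lines that differed in size. DCTPP1, a dCTP pyrophosphatase (0.70 ± 0.12, adjusted p = 0.00409), thymidylate synthase TYMS (0.58 ± 0.11, adjusted p = 0.00598) and the pyrimidine synthesis enzyme CAD (0.53 ± 0.14, adjusted p = 0.0254) also differed. The CAD call was lost on leaving out any of 8 of the 12 libraries.

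Poly(A) selection depletes most transcripts of replication-dependent histones, so their values count only polyadenylated copies. Of 25 members tested, 7 rose and 2 fell in H446, where 7.03% and 12.5% of all genes did, and none passed in BEAS-2B. The response was lower in BEAS-2B for 4 members and higher for 2 (6.09% and 9.99% of all genes). The 4 included H3C8, at 3.44, 3.79 and 1.19 FPKM in H446 controls and 6.03, 9.75 and 5.68 after 10 Gy, and below 1 in every BEAS-2B library (difference -1.48 ± 0.38, adjusted p = 0.0206, lost without H446 10 Gy replicate 2). The others named by size were H2BC15 (-1.29 ± 0.31, adjusted p = 0.0149) and H2BC17 (-0.87 ± 0.18, adjusted p = 0.0091). H4C14 fell in H446 from 8.28, 8.01 and 8.4 to 4.73, 4.6 and 3.4 FPKM, with a difference of 1.09 ± 0.20 (adjusted p = 0.0052). Its near-identical copy H4C15 is listed with the same values, and the copies cannot be told apart.

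Further H446-only genes that fell were LRRC26, a subunit of potassium channels, and RIBC2, a protein of ciliary microtubules. LRRC26 was at 7.89, 9.52 and 8.48 FPKM in the H446 controls and 3.27, 2.94 and 1.89 after 10 Gy, while BEAS-2B had 1.62, 3.5 and 2.1 against 2.71, 4.03 and 1.49 (difference 1.51 ± 0.33, adjusted p = 0.00984). RIBC2 fell from 13.6, 14.1 and 15.13 to 5.71, 5.18 and 5.66 in H446 and did not exceed 0.11 in BEAS-2B, where a fall could not have been measured.

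The p53 target list was the reverse of the cell cycle lists, with the movement in BEAS-2B. Of 28 members tested, 6 rose in BEAS-2B with 12 libraries and 26 with 11, against 2 and 4 in H446, where 1 and 3 fell. Over all genes, 1.44% and 4.12% rose in BEAS-2B, and 7.03% and 9.04% rose and 12.5% and 15.5% fell in H446. The difference was higher in BEAS-2B for 7 genes with 12 libraries and 25 with 11, where 9.99% and 9.49% of all genes were higher. The median response was 0.57 in BEAS-2B (0.85 with 11 libraries) and -0.01 in H446. In the irradiated BEAS-2B libraries 27, 14 and 27 of the 28 genes lay above the mean of the controls, the middle count being replicate 2, and in H446 18, 11 and 12. Replicate 2 stood apart over this same list, so leaving it out was bound to strengthen the BEAS-2B response of these genes. The values with 11 libraries are thus no independent support for the list.

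CDKN1A, the inhibitor of cyclin-dependent kinases that p53 uses to stop the cycle (chromosome 6, 36676463 to 36687332), was at 79.93, 86.36 and 86.08 FPKM in BEAS-2B controls and 309.73, 102.24 and 487.79 after 10 Gy, and at 75.72, 72.81 and 71.66 in H446 controls and 72.44, 63.57 and 65.85 after 10 Gy. Controls of the 2 lines were alike, every irradiated BEAS-2B library was above its controls, replicate 2 only narrowly, and the H446 groups overlapped. With 12 libraries the response was 1.56 ± 0.36 in BEAS-2B (adjusted p = 0.0467) and the difference 1.68 ± 0.51 (adjusted p = 0.0404), a call lost on leaving out any of 9 libraries. With 11 libraries the response was 2.20 ± 0.13 (adjusted p = 3.83e-07) and the difference 2.32 ± 0.18 (adjusted p = 1.17e-05).

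GDF15, a secreted stress hormone (chromosome 19, 18386158 to 18389176), had 2.18, 1.85 and 1.96 FPKM in BEAS-2B controls and 29.71, 3.01 and 32.06 after 10 Gy, and 53.67, 50.04 and 55.54 in H446 controls and 35.49, 35.28 and 33.89 after 10 Gy. It was thus lower in untreated BEAS-2B than in H446 and came close to it after irradiation, in replicates 1 and 3. The difference was 3.01 ± 0.76 with 12 libraries (adjusted p = 0.0195) and 4.003 ± 0.090 with 11 (adjusted p = 8.82e-12), and with 11 the fall in H446 passed as well and made the response opposite.

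BBC3, which encodes the death-promoting protein PUMA, rose with 12 libraries as well: 2.73, 3.69 and 2.5 FPKM became 6.16, 5.07 and 6.25 in BEAS-2B, and 2.15, 2.38 and 2.17 stood against 2.58, 1.47 and 1.12 in H446 (difference 1.07 ± 0.22, adjusted p = 0.00833). SESN2, a stress-induced inhibitor of growth signalling, differed by 0.63 ± 0.16 (adjusted p = 0.0226) and DDB2, which recognises damaged DNA, by 0.73 ± 0.19 (adjusted p = 0.0208). The negative feedback gene MDM2 did not pass with 12 libraries (difference 1.24, adjusted p = 0.12), and passed with 11 (1.88, adjusted p = 0.000226). Against the list, PLK2 rose in H446 by 0.51 and had a lower response in BEAS-2B (-0.60), and CCNG1 also rose in H446, by 0.42.

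**Figure D3:**
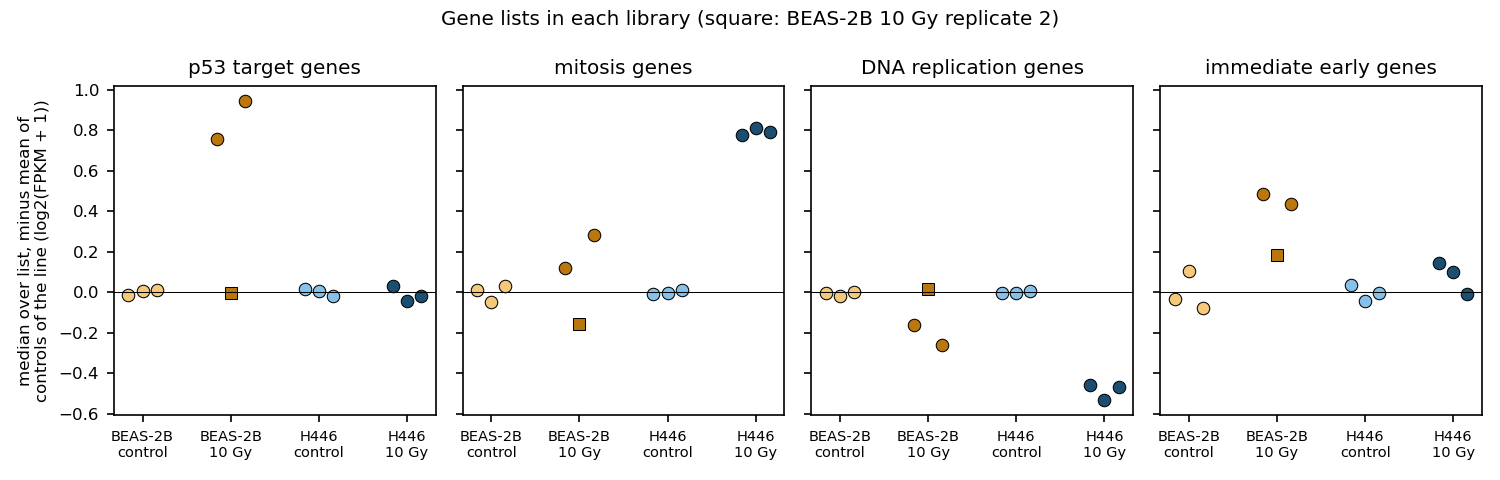
Median over 4 gene lists in each library, as the distance from the mean of the controls of the same line on the log2(FPKM + 1) scale (vertical axis), by group (horizontal axis). The square marks BEAS-2B 10 Gy replicate 2, at -0.00 for the p53 targets where the other irradiated BEAS-2B libraries are at 0.76 and 0.95, and the irradiated H446 libraries reach 0.78 to 0.81 for the mitosis genes.

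Other BEAS-2B-only genes that rose were PLTP, a phospholipid transfer protein, and EGR1, an immediate early transcription factor. PLTP was at 2.98, 4.47 and 4.2 FPKM in BEAS-2B controls and 10.73, 5.16 and 12.8 after 10 Gy, and stayed between 2.67 and 3.67 in all H446 libraries (difference 1.19 ± 0.31, adjusted p = 0.0224). EGR1 was at 20.13, 25.62 and 19.92 in BEAS-2B controls and 61.25, 31.64 and 55.93 after 10 Gy, and below 1 FPKM in every H446 library (difference 0.97 ± 0.26, adjusted p = 0.0242). Each was above the controls in all irradiated BEAS-2B libraries, least in replicate 2, and each call for the difference was lost without any of 5 libraries.

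Among the genes ranked with 11 libraries, further BEAS-2B-only rises were in AREG, a ligand of the EGF receptor, SERPINB5, a serpin of epithelial cells, and RRAD, a small GTPase. AREG went from 1.51, 1.52 and 0.54 FPKM to 14.78, 1.3 and 24.22 in BEAS-2B and was at 41.52, 39.64 and 43.53 against 36.75, 41.88 and 39.99 in H446 (difference 2.26, adjusted p = 0.0738 with 12 libraries, and 3.29 ± 0.27, adjusted p = 1.73e-05 with 11). SERPINB5 went from 1.05, 0.75 and 0.96 to 9.93, 0.74 and 17.01 in BEAS-2B, beside 68.28, 69.18 and 68.39 against 58.61, 63.44 and 64.49 in H446 (difference 2.01, adjusted p = 0.0895 with 12 libraries, and 3.01 ± 0.20, adjusted p = 4.26e-06 with 11). In both genes replicate 2 lay within or below the controls, and H446 expressed the gene at a high level before and after irradiation. RRAD went from 1.01, 0.9 and 1.07 to 6.61, 1.47 and 8.64 in BEAS-2B and did not exceed 0.27 in H446 (difference 1.42, adjusted p = 0.0559 with 12 libraries, and 2.01 ± 0.15, adjusted p = 1.13e-05 with 11).

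BEAS-2B-only genes that fell numbered 29 with 12 libraries and 26 with 11, and their median response with 12 was -0.31. The lowest response of the class was that of CDRT4, named here after its value was seen, at -1.22 with a difference of -1.35. Of the genes named by rule, ZGRF1, a helicase of DNA repair, went from 9.37, 6.73 and 9.72 to 5.69, 6.0 and 5.99 FPKM in BEAS-2B and from 4.37, 5.22 and 4.59 to 5.22, 6.35 and 6.36 in H446 (difference -0.75 ± 0.16, adjusted p = 0.0092). The BEAS-2B groups did not overlap. AKR1C1 (-0.57 ± 0.11), the zinc finger gene ZNF736 (-0.53 ± 0.12) and the pseudogene SEC22B3P (-0.52 ± 0.10) were the other 3 named by rule. AKR1C1 was at or below 1 FPKM in BEAS-2B and has near-identical paralogs, and a pseudogene may share reads with its parent, so these values are uncertain.

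With 12 libraries, opposite responses in BEAS-2B did not exceed 0.52 in size, and there were 0 opposite genes, all libraries kept, under the GC correction or the weights per line (52 and 47 with 11 libraries), and 0 without BEAS-2B control replicate 1 or 3 or 10 Gy replicate 1. PHLDA2, an imprinted gene with a pleckstrin homology domain (chromosome 11, 2928273 to 2929420), was at 9.58, 10.44 and 9.42 FPKM in BEAS-2B controls and 14.61, 14.5 and 14.36 after 10 Gy, and at 44.29, 39.04 and 36.81 in H446 controls and 29.53, 29.91 and 27.97 after 10 Gy. In neither line did the groups overlap, and replicate 2 did not stand apart. It rose by 0.52 ± 0.07 in BEAS-2B (adjusted p = 0.0194) and fell by 0.44 in H446 (SE 0.07, adjusted p = 0.000695), a difference of 0.96 ± 0.10 (adjusted p = 0.000136).

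The haem transporter SLC48A1 went from 7.18, 7.74 and 7.38 to 10.64, 9.49 and 9.6 FPKM in BEAS-2B and from 18.37, 19.74 and 18.62 to 12.77, 13.3 and 11.08 in H446 (difference 0.95 ± 0.10, adjusted p = 0.000201). The cell surface proteoglycan SDC1 went from 15.67, 18.73 and 15.81 to 23.42, 20.67 and 21.11 in BEAS-2B and from 15.94, 16.06 and 16.19 to 10.48, 11.13 and 10.27 in H446 (0.91 ± 0.10, adjusted p = 0.000262). Control levels of SDC1 were alike in the 2 lines, and the groups of neither line overlapped. LCAT, which esterifies cholesterol in lipoproteins, differed by 0.74 ± 0.13 (adjusted p = 0.00447). With 11 libraries HRCT1 (1.15 ± 0.15) and the circadian repressor NR1D1 (1.19 ± 0.18) joined them, since their rise in BEAS-2B passed only then.

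Genes down in BEAS-2B and up in H446 were 10 with 12 libraries. PIK3CA, the catalytic subunit of a PI3 kinase (chromosome 3, 179148126 to 179240093), went from 12.62, 11.46 and 11.91 to 9.72, 9.62 and 9.94 FPKM in BEAS-2B and from 11.6, 11.11 and 12.17 to 13.45, 14.21 and 15.16 in H446 (difference -0.55 ± 0.09, adjusted p = 0.00293). The integrin subunit ITGA1 went from 8.67, 8.27 and 7.86 to 6.61, 6.7 and 6.99 in BEAS-2B and from 21.64, 21.24 and 20.38 to 24.34, 26.17 and 27.44 in H446 (-0.54 ± 0.09, adjusted p = 0.00279). In both genes the groups of each line were separate. VGLL3, a cofactor of TEAD factors (-0.46 ± 0.08), and NFYB, a subunit of the CCAAT-binding factor NF-Y (-0.45 ± 0.08), behaved alike. The calls for the difference in these 8 rule-named opposite genes held with each library left out, but the calls within BEAS-2B were lost without any of 3 (PHLDA2) to 10 (LCAT) libraries. After the GC correction with 11 libraries, 52 genes were opposite, and none of those down in BEAS-2B and up in H446 passed in all 4 fits of 11 libraries (as they are, GC-corrected, quantile-normalized and weighted by line), against 19 of those up in BEAS-2B and down in H446.

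**Figure D4:**
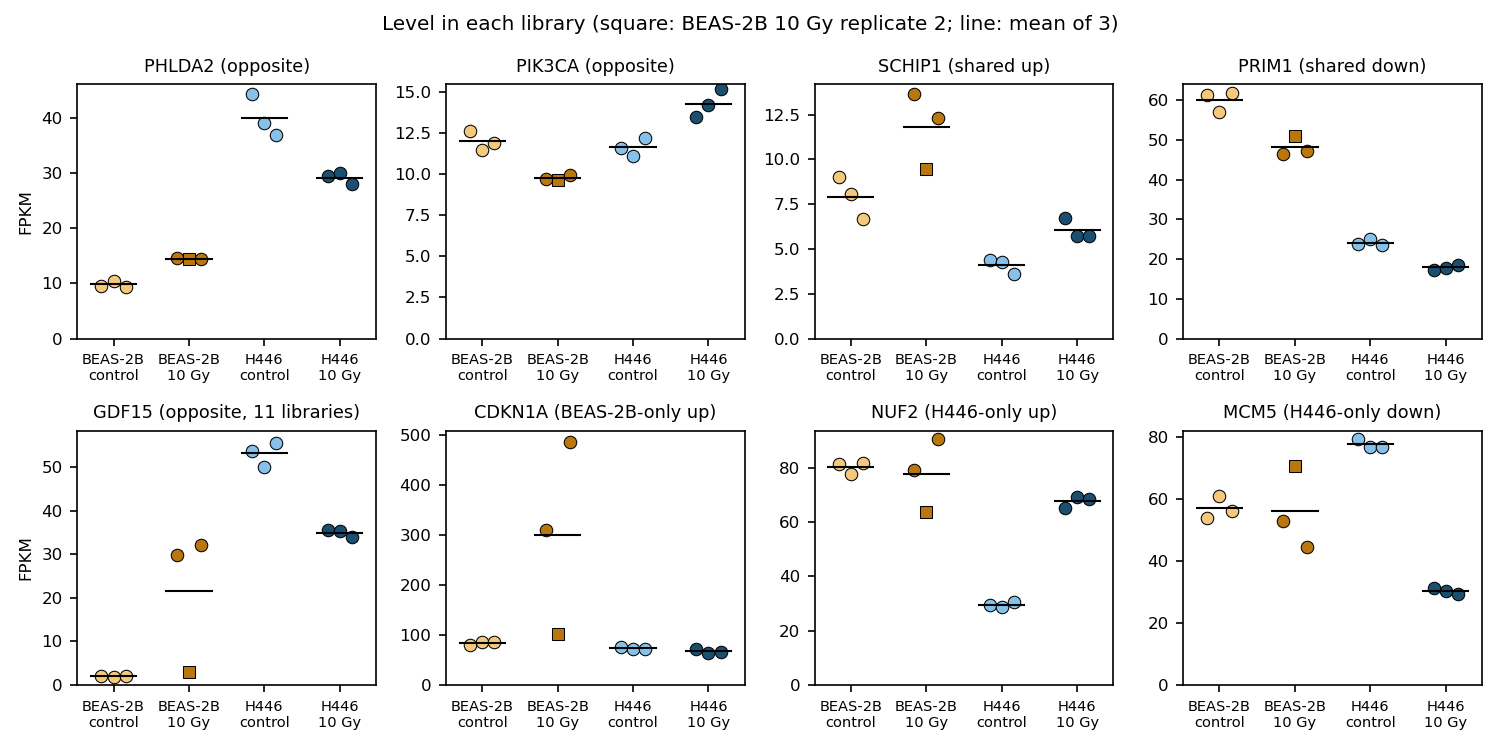
FPKM of 8 genes (vertical axes, from 0) in each library by group (horizontal axes), with a line at the mean of 3 and a square for BEAS-2B 10 Gy replicate 2. PHLDA2 rises in BEAS-2B and falls in H446, CDKN1A reaches 309.73 and 487.79 in BEAS-2B replicates 1 and 3 but 102.24 in replicate 2, and MCM5 falls in H446 to between 29.19 and 31.37.

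Shared responses were found in few genes. SCHIP1, a scaffold protein, went from 9.02, 8.06 and 6.67 to 13.68, 9.47 and 12.32 FPKM in BEAS-2B and from 4.37, 4.29 and 3.59 to 6.75, 5.73 and 5.74 in H446. The rises were 0.52 ± 0.12 and 0.48 ± 0.12, with a difference of 0.04 (95% interval -0.33 to 0.42), and no group overlapped. FAM83D, a spindle protein, rose from 36.24, 39.81 and 38.2 to 54.54, 41.98 and 56.98 and from 25.48, 23.35 and 24.06 to 33.39, 32.36 and 33.06 (difference -0.02, interval -0.29 to 0.25). ANGPTL2, a secreted angiopoietin-like protein, rose by 0.42 ± 0.09 and 0.72 ± 0.09 (difference -0.29, interval -0.57 to -0.01). TENT5B rose by 0.39 ± 0.09 and 0.37 ± 0.09, from 0.44, 0.38 and 0.6 to 0.81, 0.9 and 1.0 FPKM in H446, so that its H446 value rests on levels at or below 1 FPKM. The interval of ANGPTL2 shows that a shared call does not mean equal size. In BEAS-2B the calls of these 4 genes were each lost without any of 9 libraries.

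Of the 30 replication genes, 1 was shared with 12 libraries, PRIM1, and 6 with 11, beside 0.249% and 0.868% of all genes. PRIM1, the DNA primase, went from 61.4, 57.13 and 61.79 to 46.47, 51.07 and 47.15 FPKM in BEAS-2B and from 23.74, 25.12 and 23.63 to 17.37, 17.87 and 18.55 in H446. It fell by 0.31 in BEAS-2B (adjusted p = 0.0239) and by 0.41 in H446 (adjusted p = 0.000293), a difference of 0.10 (95% interval -0.07 to 0.27). USP1, a deubiquitinase of the Fanconi anaemia pathway, went from 72.59, 71.56 and 69.62 to 54.97, 59.49 and 62.55 and from 74.47, 74.8 and 74.42 to 58.81, 62.14 and 62.07 (difference 0.02, interval -0.15 to 0.18). CASP8AP2, a regulator of histone gene expression, fell by 0.40 and by 0.38 on the log2 scale, and the zinc finger gene ZNF514 by 0.35 in each line. HELLS, a chromatin remodeller, fell by 0.34 and by 0.65, with a difference of 0.30 that was close to the threshold (adjusted p = 0.0643), and KNTC1, a kinetochore protein, by 0.41 and by 0.33. In all 6 genes the groups of each line were separate, BEAS-2B 10 Gy replicate 2 included. These genes were chosen because both lines passed, which favours separate groups, so the separation adds no support. The adjusted p in BEAS-2B lay between 0.0239 and 0.0418, and the call was lost without any of 3 (PRIM1) to 9 libraries.

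With 11 libraries the shared genes also held DDIT3, a transcription factor of the stress response, at 16.86, 16.08 and 16.06 FPKM in BEAS-2B controls and 31.39, 12.96 and 43.86 after 10 Gy, and at 7.68, 5.74 and 7.37 in H446 controls and 10.36, 12.55 and 8.03 after 10 Gy. Replicate 2 lay below its controls, and the difference was 0.64 ± 0.21 with 11 libraries (adjusted p = 0.0651). With 12 libraries it was 0.15 (adjusted p = 0.821), and neither line passed (adjusted p = 0.227 in BEAS-2B and 0.253 in H446). STK17A and NEURL1B were the next in size, with differences of -0.01 and -0.11 with 11 libraries.

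Of 16 immediate early genes tested, 7 rose in BEAS-2B with 12 libraries and 12 with 11 (1.44% and 4.12% of all genes), and 2 and 5 rose in H446 (7.03% and 9.04%). The difference was higher in BEAS-2B for 5 and lower for 1 (9.99% and 6.09% of all genes), for 10 and 1 with 11 libraries (9.49% and 4.68%) and for 7 and 0 after the GC correction with 11 (821 and 315 of all 12316 genes). The list median was 0.37 in BEAS-2B and 0.09 in H446. IER2 was opposite, from 17.02, 19.59 and 16.24 to 25.83, 20.85 and 23.32 FPKM in BEAS-2B and from 36.4, 32.37 and 33.53 to 30.17, 28.24 and 26.09 in H446 (difference 0.65 ± 0.12, adjusted p = 0.00523). The AP-1 subunit JUNB differed by 0.52 ± 0.12 (adjusted p = 0.0126) and DUSP6, a phosphatase of ERK, by 0.44 ± 0.14 (adjusted p = 0.0481). KLF6 was the member with a lower response in BEAS-2B, at -0.36.

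Of 22 NF-kB and cytokine genes tested, 4 differed with 12 libraries, each with the higher response in BEAS-2B (9.99% of all genes). With 11 libraries the response was higher for 9 (9.49%) and lower for 1 (4.68%). IL1B, the cytokine that inflammasomes process, was at 15.07, 17.51 and 17.17 FPKM in BEAS-2B controls and 29.84, 16.05 and 33.42 after 10 Gy, and at 14.84, 14.2 and 14.4 in H446 controls and 12.38, 11.24 and 12.05 after 10 Gy. Only replicates 1 and 3 were above the BEAS-2B controls, and all irradiated H446 libraries were below theirs. The difference was 0.85 ± 0.25 (adjusted p = 0.0389) with 12 libraries, lost without any of 9 of them, and 1.16 ± 0.10 (adjusted p = 2.39e-05) with 11. TNFAIP2 (0.65 ± 0.09, adjusted p = 0.00177), IRF1 (0.52 ± 0.16, adjusted p = 0.0381) and the NF-kB subunit RELB (0.45 ± 0.12, adjusted p = 0.0274) differed in the same direction.

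Of 12 inflammasome genes tested, 1 had a higher and 3 a lower response in BEAS-2B with 12 libraries (9.99% and 6.09% of all genes). The counts were 2 and 2 with 11 (9.49% and 4.68%), and 2 and 0 after the GC correction with 11 (821 and 315 of all 12316 genes). The lower ones with 12 were CARD8 (-0.61 ± 0.17, adjusted p = 0.0256), NEK7, a partner of NLRP3 (-0.46 ± 0.09, adjusted p = 0.00586), and the cytokine IL18 (-0.37 ± 0.11, adjusted p = 0.0345). IL18 did not pass with 11 libraries (adjusted p = 0.0634), and after the GC correction with 11 neither CARD8 (adjusted p = 0.111) nor NEK7 (adjusted p = 0.0673) did. CASP1, the inflammatory caspase, was at 10.2, 9.26 and 9.69 FPKM in BEAS-2B controls and 8.71, 8.21 and 10.38 after 10 Gy, and at 19.76, 21.4 and 22.9 in H446 controls and 21.28, 22.45 and 19.27 after 10 Gy. Groups overlapped in both lines, and the difference was -0.07 (95% interval -0.32 to 0.19). The pore-forming GSDMD had a difference of 0.25 (interval -0.01 to 0.50) and the adaptor PYCARD one of -0.07 (interval -0.44 to 0.30). NLRP3 did not exceed 0.59 FPKM in BEAS-2B or 0.02 in H446, and DPYSL4 did not exceed 0.28, and neither passed the filter on low values. Irradiated BEAS-2B replicates 1 and 3 were above the controls for both genes, and replicate 2 was not. With no filter, their differences were 0.09 (adjusted p = 0.58) and 0.20 (adjusted p = 0.315).

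Among 25 homologous recombination genes, 2 had a higher and 6 a lower response in BEAS-2B, beside 9.99% and 6.09% of all genes. After the GC correction with 11 libraries 2 and 3 did, beside 821 and 315 of all 12316 genes. FANCD2, a central protein of the Fanconi anaemia pathway, went from 19.08, 18.34 and 18.86 to 15.39, 17.6 and 16.09 FPKM in BEAS-2B and from 15.97, 15.31 and 14.6 to 23.43, 20.81 and 21.55 in H446 (difference -0.68 ± 0.09, adjusted p = 0.000995). No group overlapped with another of its line. FANCB (-0.68 ± 0.12) and the nuclease EME1 (-0.59 ± 0.13) were also lower, and RAD51D (0.60 ± 0.14), with a fall of its transcript in H446, was higher.

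Of 29 interferon-stimulated genes, 7 rose in H446 (7.03% of all genes) and none passed in BEAS-2B with 12 libraries, and 4 had a lower response in BEAS-2B (6.09%). These were SAMD9 (-0.71 ± 0.13), IFI44 (-0.58 ± 0.11), HERC6 (-0.53 ± 0.13) and IFIT1 (-0.46 ± 0.15, lost without any of 10 libraries, BEAS-2B 10 Gy replicate 2 among them). IFI44 stood at 116.69, 109.71 and 115.98 FPKM in H446 controls and 154.61, 156.06 and 166.46 after 10 Gy, and between 1.39 and 2.06 in BEAS-2B. With 11 libraries 3 members rose in BEAS-2B (4.12% of all genes), and the difference of ISG15 passed in the other direction, at 1.18.

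Of 20 integrated stress response genes, 9 had a higher response in BEAS-2B (9.99% of all genes), and 6 fell in H446 (12.5%) while 1 rose in BEAS-2B (1.44%). TRIB3, a pseudokinase (0.58 ± 0.10, adjusted p = 0.00429), and the amino acid transporter subunits SLC3A2 (0.54 ± 0.10, adjusted p = 0.00543) and SLC7A5 (0.52 ± 0.17, adjusted p = 0.0497, and 0.0976 with 11 libraries) were among them. Of 20 glycolysis genes, 5 had a higher response in BEAS-2B (9.99% of all genes) and 5 fell in H446 (12.5% of all genes). With 11 libraries 3 were higher (9.49% of all genes), and 2 after the GC correction with 11 (821 of all 12316 genes). The median response in BEAS-2B went from 0.06 with 12 libraries to -0.03 with 11. The 5 included the lactate exporter SLC16A3, from 210.26, 199.31 and 204.42 to 170.94, 155.99 and 158.3 FPKM in H446 and from 145.81, 163.3 and 140.99 to 178.04, 192.28 and 163.11 in BEAS-2B (difference 0.58 ± 0.10, adjusted p = 0.00359). ENO2 (0.43 ± 0.10), PFKL (0.38 ± 0.12, adjusted p = 0.0752 with 11 libraries) and PFKP (0.31 ± 0.08) followed.

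Of 15 YAP and TEAD target genes, 2 had a higher and 3 a lower response in BEAS-2B, beside 9.99% and 6.09% of all genes. CCN1, a matricellular protein, went from 118.4, 114.14 and 120.45 to 236.74, 236.89 and 247.13 FPKM in H446 and from 402.51, 478.52 and 380.3 to 552.26, 435.24 and 450.73 in BEAS-2B (difference -0.84 ± 0.13, adjusted p = 0.00266). The H446 groups were far apart and the BEAS-2B groups overlapped. The growth factor TGFB2 (-0.60 ± 0.13) was lower too, and AMOTL1 (0.38 ± 0.11) and ARHGEF17 (0.35 ± 0.10) were higher. Of 5 EGF receptor ligand genes tested, HBEGF (0.57 ± 0.18, adjusted p = 0.0497) and EPGN (0.31 ± 0.09, adjusted p = 0.0362) had a higher response in BEAS-2B with 12 libraries, as did 9.99% of all genes. EPGN did not exceed 0.08 FPKM in BEAS-2B, so its difference rests on the H446 response of -0.29, and it did not pass with 11 libraries (adjusted p = 0.0563). Over the 22 cholesterol synthesis genes, the median of the difference was -0.05, against 0.04 over all genes.

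**Figure D5:**
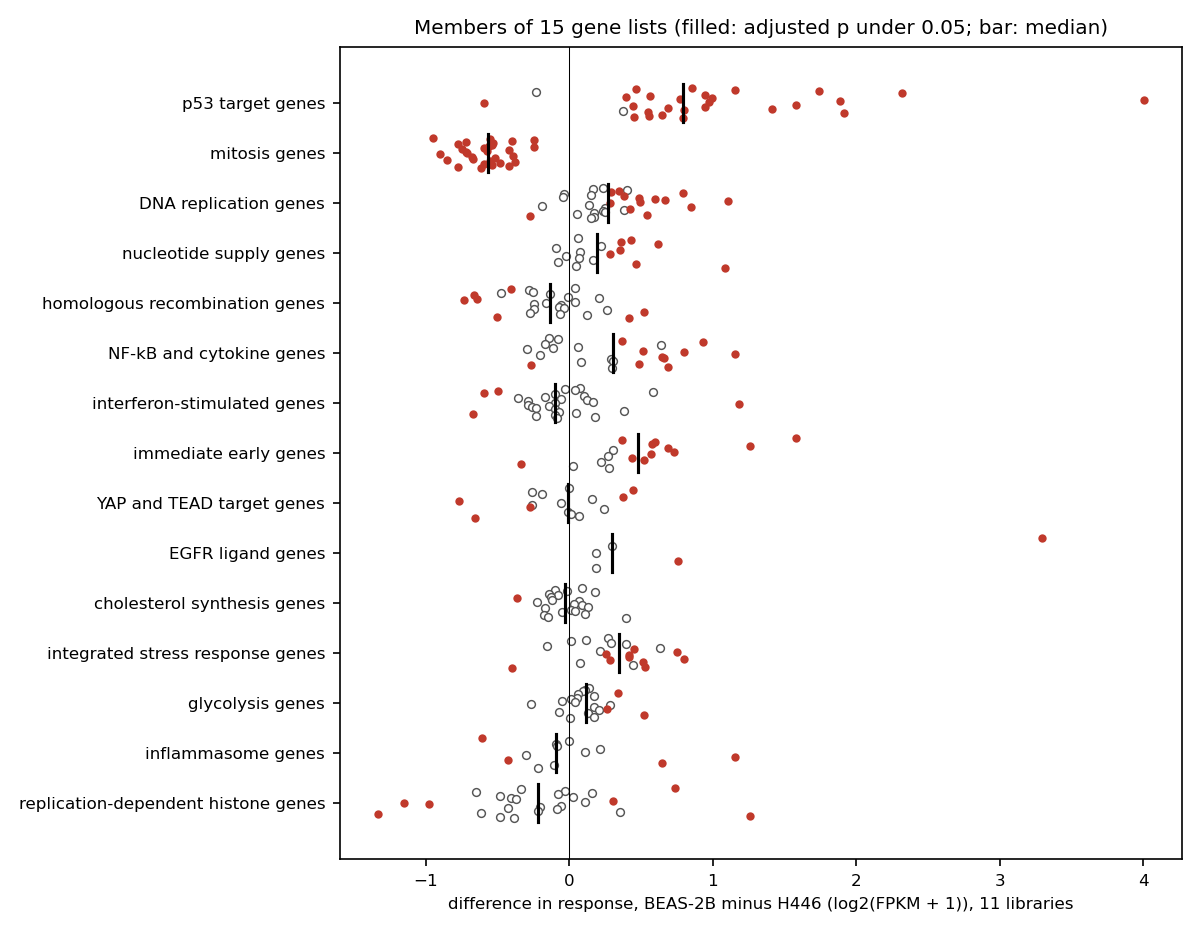
Difference in response, BEAS-2B minus H446, on the log2(FPKM + 1) scale (horizontal axis) for each tested member of 15 gene lists (vertical axis), with 11 libraries. Filled points passed the test and the bar is the median, which is 0.80 for the p53 targets, -0.57 for the mitosis genes, 0.27 for the replication genes and 0.48 for the immediate early genes.

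The counts of genes past the threshold in the lists can be set beside those over all genes only as a description, since members of a list do not vary independently. Under quantile normalization and under the GC correction, each with 11 libraries, the medians of the difference kept their sign for the p53 (0.74 and 0.81), mitosis (-0.61 and -0.50) and replication (0.22 and 0.25) lists. Across all genes, the responses of the 2 lines had a Pearson correlation of -0.101 with 12 libraries, 0.063 with 11, and 0.207 with 11 after the GC correction (Spearman's rho -0.184, 0.013 and 0.214), over genes that are not independent replicates and in libraries whose GC trends differ.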

How the data were processed

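RNA-seq libraries of BEAS-2B and H446 cells (3 control and 3 irradiated with 10 Gy per line) were grouped by their labels. The authors made poly(A) libraries, read them as single-end 50 base reads on a BGISEQ-500 and deposited 1 table of normalized values, taken here as FPKM. The unit was inferred, since no source names it. The submitters' processing notes name HISAT2 2.0.4, Bowtie2 2.2.5, RSEM 1.2.12 and hg38. RSEM shares reads among similar transcripts, which leaves near-identical genes uncertain. Of 18475 Entrez identifiers 18181 were matched to RefSeq names. Depth is unknown, so no counting interval is given.

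Values were transformed to log2(FPKM + 1), a scale that understates the change of low genes. Genes that reached an FPKM of 1 in 3 or more of the 6 libraries of either line entered 1 limma 3.58.1 fit (R 4.3.3) of 4 group means, with a trend on the mean. The contrasts were each line's response and their difference, with Benjamini-Hochberg adjustment over 12438 genes and a threshold of 0.05. All adjusted p-values and standard errors are from limma. An exact permutation test of 3 against 3 libraries cannot go below 0.1. The fit was repeated without BEAS-2B 10 Gy replicate 2. Up to 4 genes per class and direction were named, reaching a mean of 5 FPKM in a group and the same class with 12 and 11 libraries, ranked by the smaller response (opposite, shared) or the difference (line-only), as well as up to 4 members per list with the largest differences that passed, and genes the study names. A second set ranked with 11 libraries (GDF15, HRCT1, NR1D1, AREG, SERPINB5, RRAD, DDIT3, STK17A, NEURL1B, PRIM1, USP1), the p53 half-site motif and further list members (MDM2, CCNG1, PLK2, RFC3, KLF6, ISG15, CDRT4) were added after the data were seen. The members, lists and tests were chosen with earlier results of these data known. Some genes within the rule are not reported here.

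Promoters are from RefSeq (GRCh38.p14), for 10161 of the genes tested, and motifs were searched on both strands. The p53 half-site was in 13.6% of 22 p53 target promoters and 5.16% of all. Gene positions are those of RefSeq, and GC content is that of the longest GENCODE 29 transcript of a gene. The alternatives were quantile normalization, equal totals within a line, a GC correction (loess, span 0.5, on 17848 genes with a GC content), the replicate number as a block, no trend, weights per line, all 18 libraries, other filters, pseudocount 0.1, adjusted p under 0.01, an absolute log2 value of at least 1 and each library left out. The scripts were tested on simulated data.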

Additional observations from a re-analysis of the deposited data

Results flagged for a closer look

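The genes below are those named by rule, or in the second set ranked with 11 libraries after the data were seen, whose response to 10 Gy differed between BEAS-2B and H446 by limma's test of the difference. Each value is the BEAS-2B minus the H446 response on the log2(FPKM + 1) scale, with 12 libraries unless stated. Differences of at least 1 in favour of BEAS-2B were found in GDF15 (3.01), CDKN1A (1.68), LRRC26 (1.51), MCM5 (1.28), UNG (1.23), PLTP (1.19), RIBC2 (1.18), H4C14 (1.09), H4C15 (1.09), BBC3 (1.07) and NR1D1 (1.04). With 11 libraries, AREG (3.29), SERPINB5 (3.01) and RRAD (2.01) joined these. Of the further genes named after their values were seen, CDRT4 (-1.35), PLK2 (-0.60), KLF6 (-0.36) and RFC3 (-0.31) differed with 12 libraries, and MDM2 (1.88) and ISG15 (1.18) with 11.

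Smaller differences in the same direction were found in HRCT1 (0.99), EGR1 (0.97), PHLDA2 (0.96), SLC48A1 (0.95), SDC1 (0.91), GINS2 (0.89), IL1B (0.85), PCNA (0.84), MCM4 (0.78), LCAT (0.74), DDB2 (0.73), DCTPP1 (0.70), IER2 (0.65), TNFAIP2 (0.65) and SESN2 (0.63). The next were RAD51D (0.60), SLC16A3 (0.58), TRIB3 (0.58), TYMS (0.58), HBEGF (0.57), SLC3A2 (0.54), CAD (0.53), JUNB (0.52), SLC7A5 (0.52), IRF1 (0.52) and RELB (0.45). The least were DUSP6 (0.44), ENO2 (0.43), AMOTL1 (0.38), PFKL (0.38), ARHGEF17 (0.35), PFKP (0.31) and EPGN (0.31).

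The response was lower in BEAS-2B by 1 or more in H3C8 (-1.48), H2BC15 (-1.29), NUF2 (-1.23), ASPM (-1.10), HMMR (-1.06) and NEK2 (-1.04). It was lower by less in TTK (-0.95), H2BC17 (-0.87), CCN1 (-0.84), ZGRF1 (-0.75), SAMD9 (-0.71), FANCD2 (-0.68), FANCB (-0.68), CARD8 (-0.61) and TGFB2 (-0.60). Further genes with a lower response were EME1 (-0.59), IFI44 (-0.58), AKR1C1 (-0.57), PIK3CA (-0.55), ITGA1 (-0.54), ZNF736 (-0.53), HERC6 (-0.53), SEC22B3P (-0.52), IFIT1 (-0.46), NEK7 (-0.46), VGLL3 (-0.46), NFYB (-0.45) and IL18 (-0.37). Each difference is a single gene's value, and members of a list do not vary independently.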

How the results depend on the processing

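In this order, the numbers are genes past the limma threshold for the difference, for BEAS-2B, for H446, and the opposite, shared, BEAS-2B-only and H446-only genes. With 12 libraries they were 2001, 272, 2431, 41, 31, 119 and 1315. The GC correction gave 893, 0, 2233, 0, 0, 0 and 747, and with BEAS-2B 10 Gy replicate 2 left out 1136, 713, 2584, 52, 144, 267 and 636. An absolute log2 value of at least 1 left 27, 9, 20, 0, 0, 5 and 10, and an adjusted p under 0.01 left 509, 0, 993, 0, 0, 0 and 374. The 18 libraries in 1 fit gave 3015, 833, 3168, 137, 86, 371 and 1856. Weights per line gave 0 genes in BEAS-2B and 4507 in H446, and 0 opposite, shared and BEAS-2B-only genes. With these weights and replicate 2 left out, an alternative added after the data were seen, the difference passed for 1327, H446 for 4535 and shared responses numbered 47. In BEAS-2B, equal totals gave 126 genes and no filter 114, with 9 and 14 opposite, 16 and 12 shared and 64 and 63 BEAS-2B-only genes. No trend left 26 opposite genes. Quantile normalization with replicate 2 left out, also added, gave 679 genes in BEAS-2B and 66 opposite, 124 shared and 298 BEAS-2B-only genes. Where BEAS-2B had 0 genes, 1869 (GC correction), 1658 (weights) and 2587 (adjusted p under 0.01, as with 12 libraries) had an unadjusted p under 0.05.

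Leaving out each library gave 929 to 3887 genes for the difference, 0 to 1540 for BEAS-2B, 1190 to 3125 for H446, 0 to 363 opposite, 0 to 114 shared, 0 to 759 BEAS-2B-only and 616 to 1816 H446-only genes. BEAS-2B had 0 genes without control replicate 1 or 3 (1478 and 1991 at an unadjusted p under 0.05), 1 without 10 Gy replicate 1, 1133 without control replicate 2, 648 without 10 Gy replicate 2, 1540 without 10 Gy replicate 3, and 39 to 95 without an H446 library. In the replicate block fit, 398 genes passed in BEAS-2B, with 73 opposite and 198 BEAS-2B-only genes, and with the GC correction the block gave 999 genes for the difference, 0 for BEAS-2B, 0 opposite, shared and BEAS-2B-only and 831 H446-only genes (2110 at an unadjusted p under 0.05 in BEAS-2B). The numbers were not taken as pairs, since the deviations of same-numbered libraries correlated at -0.11, 0.31 and 0.30 in BEAS-2B and 0.17, 0.01 and 0.08 in H446. Over 89 named genes and 26 alternatives, the stricter limits on p and size not among them, 1979 of 2297 values kept their side of the threshold, 291 lost the call and 27 gained it. Of values that passed in neither fit, 45 in 9 genes changed sign, and 0 did of those that passed in either. The calls for the difference in PLTP, EGR1, SESN2, PFKP and CARD8 (without any of 5 libraries), DDB2 (3), RELB (6), ARHGEF17 (7), CAD, IRF1 and AMOTL1 (8), CDKN1A, IL1B, EPGN, SLC7A5, PFKL and IL18 (9) and IFIT1, DUSP6 and HBEGF (10) were among those lost, all of them without BEAS-2B control replicate 1 (adjusted p from 0.0545 to 0.121). After the GC correction with 11 libraries, VGLL3, ZNF736, H3C8, H2BC15, CAD, RELB, IFIT1, JUNB, TGFB2, ARHGEF17, SLC7A5, PFKL, PFKP, CARD8, NEK7 and IL18 did not pass for the difference (adjusted p from 0.0613 to 0.67). Depth is unknown, and values below 1 FPKM are uncertain.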
